A study of Homo sapiens with 12 samples.

Results

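The 10 genes described here are the core BCL2 family genes and TNFSF10, which encodes the death ligand TRAIL. They were taken by name and are 10 of the 59424 Ensembl genes in the deposited tables. By role they are the anti-apoptotic genes BCL2, BCL2L1 and MCL1, the pore-forming genes BAX and BAK1, the BH3-only genes BCL2L11, BBC3, PMAIP1 and BID, and the ligand TNFSF10. RNA was sequenced from 2 human prostate cancer cell lines in 4 groups of 3 biological replicates, 12 libraries in all. CWR22Rv1 cells carried a lentiviral control shRNA (shControl) or a knockdown of GALNT7 (GALNT7 KD). DU145 cells carried a lentiviral control open reading frame (OE control) or overexpressed GALNT7 (GALNT7 OE). GALNT7 encodes an enzyme that adds GalNAc sugars to proteins. All 4 groups are stable lines made by transduction. Whether each was a pool or a single clone is not given in the sources used here, so a feature of 1 line and an effect of GALNT7 cannot be told apart, and the p-values measure only the spread between libraries of these lines.

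In the mitochondrial pathway of apoptosis, BAX and BAK1 form pores in the outer mitochondrial membrane that release cytochrome c. BCL2, BCL-XL (from BCL2L1) and MCL1 hold them back, and the BH3-only proteins BIM (from BCL2L11), PUMA (from BBC3), NOXA (from PMAIP1) and BID act against these guards or on the pore formers directly. TRAIL starts the other route: it binds death receptors on the cell surface, which activate caspase-8, and caspase-8 cleaves BID and so joins the routes. BCL2L11, BBC3 and TNFSF10 are reported targets of FOXO transcription factors, and FOXO1 is a gene that the study followed up. The comparison here asks how the RNA of the 10 genes stood when GALNT7 was lowered or raised. Much of this family's control is at the protein level, which RNA libraries do not show.

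The sequences before the RefSeq starts of the 3 reported FOXO targets are shown because they carry short matches to motifs of factors discussed with these genes. They are written 5′ to 3′ on the strand of each gene, from GRCh38.p14 (RefSeq). Capitals mark the matches: GTAAACA, a FOXO motif, in BCL2L11, TGANTCA, the AP-1 motif, in BBC3, and GAAANNGAA, the core of an interferon response element, read on the opposite strand in TNFSF10. The stretches are chr2:111120664-111120913 for BCL2L11 (plus strand), chr19:47232767-47232917 for BBC3 (minus strand) and chr3:172523508-172523680 for TNFSF10 (minus strand), and none of them overlaps an exon of GENCODE release 29. The BCL2L11 stretch lies inside the longer gene of that release, between its exons.
BCL2L11: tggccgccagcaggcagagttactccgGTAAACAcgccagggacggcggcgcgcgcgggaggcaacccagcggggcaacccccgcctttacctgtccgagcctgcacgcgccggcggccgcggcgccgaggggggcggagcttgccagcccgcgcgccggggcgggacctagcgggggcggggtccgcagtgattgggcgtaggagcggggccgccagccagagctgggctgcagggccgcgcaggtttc
BBC3: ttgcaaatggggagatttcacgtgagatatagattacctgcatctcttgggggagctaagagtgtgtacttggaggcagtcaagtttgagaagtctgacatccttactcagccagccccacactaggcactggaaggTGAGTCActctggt
TNFSF10: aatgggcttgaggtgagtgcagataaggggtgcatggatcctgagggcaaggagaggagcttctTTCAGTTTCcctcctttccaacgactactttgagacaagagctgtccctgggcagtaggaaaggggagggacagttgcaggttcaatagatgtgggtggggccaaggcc

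Both strands of the 250 bases before the start were searched for 4 motifs, the ones above and the gamma-activated sequence TTCNNNGAA. RefSeq promoters were given for 9 of the 10 genes, with 14 starts, and not for MCL1. The FOXO motif was found before BCL2L11 alone among these 9 genes, 223 to 217 bases before the start, and before 2.98% of all 35116 promoters. The interferon response element core was found before TNFSF10 alone, at 186 to 178 and at 54 to 46 bases before the start, and before 6.88% of promoters. The second of these matches, TTCGCTTTC, lies in the 77 bases that GENCODE counts as exon and that are not shown. The AP-1 motif was found before BBC3 alone, 113 to 107 bases before the start, and before 6.57% of promoters. The gamma-activated sequence was before 6.57% of promoters and before none of the 9 genes. A match describes these letters only and says nothing of binding.

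The tables hold normalised counts, which are the reads on a gene divided by a size factor for the library. The reads behind them could be recovered and came to between 18364512 and 22264533 per library in CWR22Rv1 cells and between 21628718 and 24356910 in DU145 cells. The tables of the cell lines were scaled apart, so differences were tested within a line only, and a level given for both lines serves to show presence or near absence. Limma was fitted to log2(normalised count + 1) in either line, leaving out genes whose mean fell under 5, and a gene was called at a Benjamini-Hochberg adjusted p under 0.05. With 3 libraries against 3, the exact two-sided permutation test for a single gene cannot go below p = 0.1. GALNT7 itself had 862, 1042 and 1093 normalised counts in shControl and 481, 501 and 400 in GALNT7 KD, and 1051, 928 and 913 in the OE control against 1989, 2221 and 2334 in GALNT7 OE, as the labels say. The prostate lineage gene HOXB13 stood at 5401 to 6048 normalised counts in the CWR22Rv1 libraries and at 0 to 11.2 in the DU145 libraries. The summed epithelial markers (EPCAM, CDH1, KRT8 and KRT18) lay between 20827 and 25908 in all 12, but single ones differed between groups: EPCAM was lower in GALNT7 KD (log2 fold change -0.71, limma adjusted p = 0.013) and higher in GALNT7 OE (0.62, 0.0016), KRT18 was lower in GALNT7 KD (-0.35, 0.024) and CDH1 was lower in GALNT7 OE (-0.58, 0.0092).

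Per length of the gene, MCL1 had the highest level of the 10 in every group. In RPKM, recovered reads divided by exon length and library total, it stood at 76.5 ± 2.11 (SD, n = 3) in shControl and 151 ± 1.36 (SD, n = 3) in the OE control. In shControl it was followed by BAX (18.4 RPKM), BAK1 (17.9 RPKM), BCL2L1 (14.5 RPKM), BBC3 (6.89 RPKM), BCL2L11 (4.53 RPKM), PMAIP1 (4.21 RPKM), BCL2 (1.78 RPKM), BID (0.675 RPKM) and TNFSF10 (0.0134 RPKM). The libraries of BAX and BAK1 overlapped, as did those of BCL2L11 and PMAIP1, and the other neighbours in this order did not. In the OE control the order was MCL1, BCL2L1 (95.8 RPKM), PMAIP1 (18.3 RPKM), BAK1 (15.5 RPKM), BID (10.9 RPKM), BAX (9.52 RPKM), BCL2L11 (5.38 RPKM), TNFSF10 (2.78 RPKM), BBC3 (1.89 RPKM) and BCL2 (0.0355 RPKM), with no overlap between neighbours. BCL2 RNA was thus close to absent from DU145 cells, with 28 reads over the 3 OE control libraries, and TNFSF10 RNA from CWR22Rv1 cells, with 3 reads over the 3 shControl libraries. In GALNT7 KD cells BAK1 and BAX changed places with overlapping libraries, and in GALNT7 OE cells PMAIP1 passed from the third place to the fifth, overlapping BID, and TNFSF10 dropped below BBC3.

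**Figure D1:**
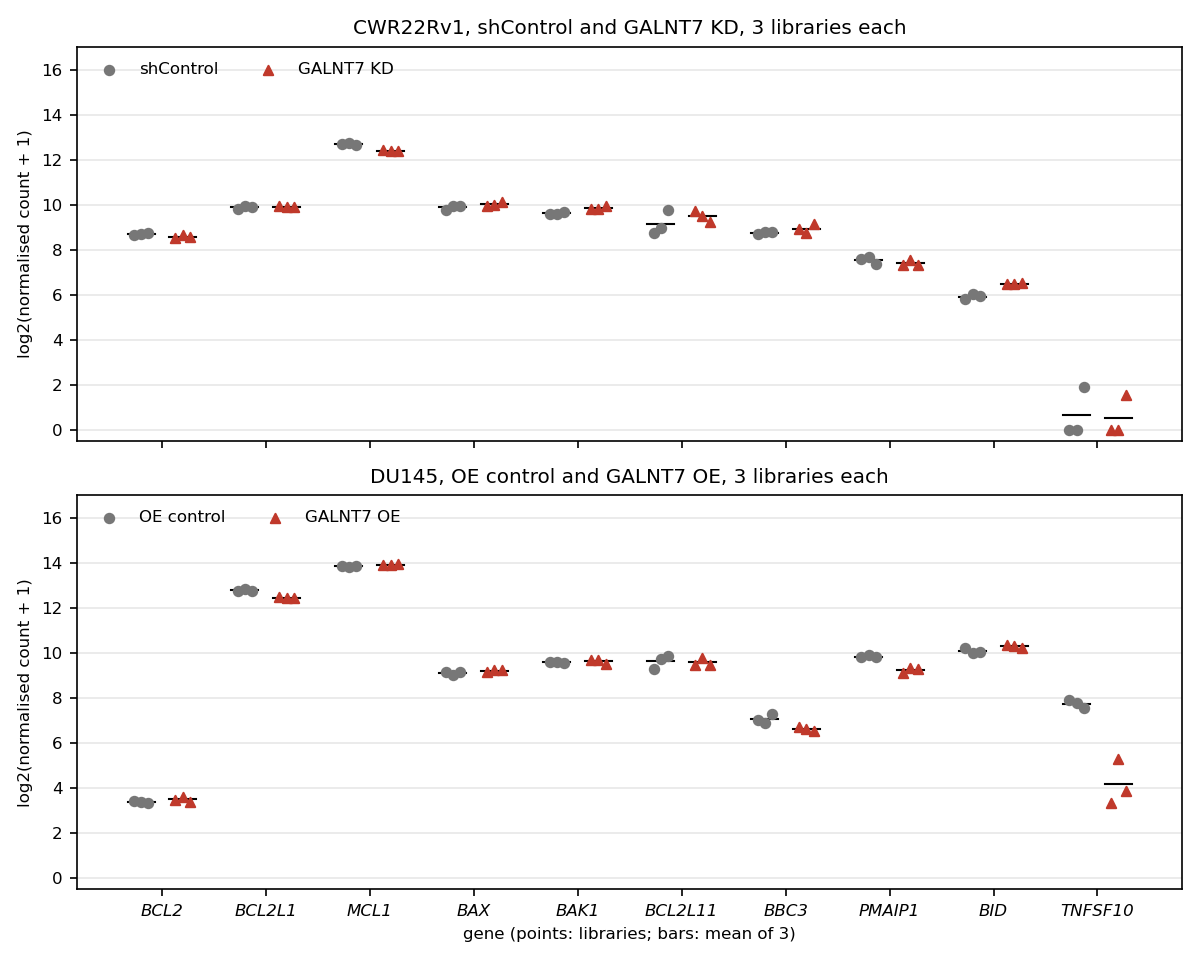
The level of each of the 10 genes in each library, as log2(normalised count + 1), in CWR22Rv1 cells (top) and DU145 cells (bottom); points are libraries and short bars the mean of 3. TNFSF10 in DU145 cells shows the widest gap between the groups, and BCL2L11 the widest spread within a control group of CWR22Rv1 cells among the genes above the filter.

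TNFSF10 was far lower in GALNT7 OE cells than in the OE control: its mean normalised count fell by 90.6%, with a log2 fold change of -3.58 (SE, the standard error, 0.47; limma adjusted p = 0.0011). TNFSF10 (ENSG00000121858) is a gene of chromosome 3, from 172505508 to 172523507, minus strand. Its normalised counts were 237, 220 and 185 in the OE control and 9.02, 37.9 and 13.6 in GALNT7 OE. All 3 GALNT7 OE libraries lay far below the lowest control library, and among them replicate 2 was the highest. The counts rest on 647 and 63 reads in all. The log2 fold change compares mean logarithms, so it need not match the fall of the mean counts. Adding 1 before the logarithm makes it smaller in size than it would be without that addition. Leaving out any 1 library gave log2 fold changes between -4.14 and -3.16, all called. In these bulk libraries, fewer cells with the transcript and less of it per cell cannot be told apart. Markers of other cell types were mostly low, and some differed between the groups. Of the leukocyte markers, CD14 went from between 62.5 and 124 normalised counts in the OE control to between 25.9 and 30.1 in GALNT7 OE. CD3E was at 0 in every library and PTPRC at most at 2.10. The summed fibroblast markers (COL1A1, COL3A1 and PDGFRB) went from between 303 and 429 to between 71.2 and 164. That fall was of COL1A1 (means 334 and 90.6), while COL3A1 (2.68 and 4.22) and PDGFRB (9.31 and 8.82) overlapped between the groups. The summed endothelial markers (PECAM1, CDH5 and VWF) lay between 14.3 and 23.2 in the OE control and between 7.39 and 54.5 in GALNT7 OE. The part of such cells in the TNFSF10 difference was not tested.

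In CWR22Rv1 cells TNFSF10 could not be compared. It had 0, 0 and 2.75 normalised counts in shControl and 0, 0 and 1.93 in GALNT7 KD, which are 3 and 2 reads. Both groups are at or under 3 reads, so no fold is given, and a difference was not detectable at this depth. TNFSF10 was the only one of the 10 genes that failed the filter, and only in this cell line.

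The call count was near that of all genes in both comparisons. In knockdown 1 of the 9 genes tested was called (11.1%), against 9.06% of all 17906 genes, and it was lower, as were 3.79% of all genes, while 5.28% of all genes were called higher. In overexpression 4 of the 10 genes were called (40%), against 43.5% of all 18705 genes. All 4 were lower, as were 20.5% of all genes, while 22.9% were called higher. The groups did not overlap for 3 of 9 genes in knockdown and for 6 of 10 in overexpression, against 32.5% and 55.3% of all genes. Over all genes, 4675 of 17906 in knockdown and 9677 of 18705 in overexpression had an unadjusted limma p under 0.05. On the recovered reads, edgeR called 1546 and 8042 of all genes and DESeq2 called 2666 and 8048. The list counts below stand against these. The median log2 fold change of the genes tested was 0.14 in knockdown and -0.0015 in overexpression, beside -0.0063 and -0.011 over all genes.

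**Figure D2:**
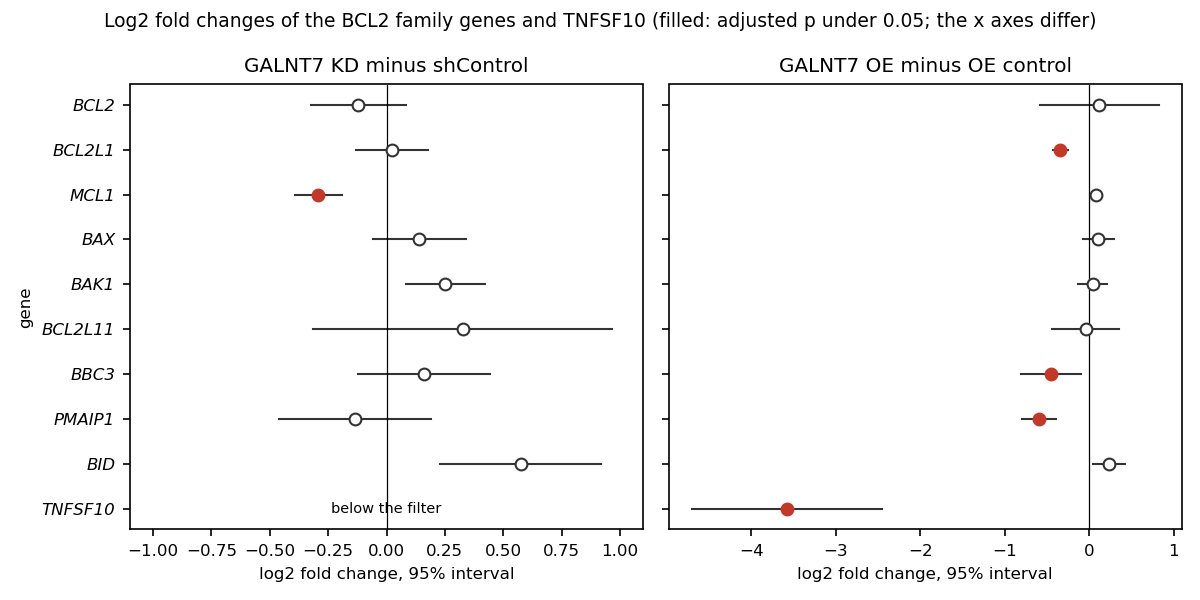
Log2 fold changes of the 10 genes with their 95% intervals from limma, for GALNT7 KD minus shControl in CWR22Rv1 cells (left) and GALNT7 OE minus OE control in DU145 cells (right); filled points have an adjusted p under 0.05, and the x axes differ. MCL1 is the only filled point on the left, and BCL2L1, BBC3, PMAIP1 and TNFSF10 are filled on the right, all below 0.

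Of the 3 anti-apoptotic genes, 1 was called by limma in each comparison, lower both times and not the same one. Beside this, 9.06% of all genes were called in knockdown and 43.5% in overexpression, with 3.79% and 20.5% called lower. MCL1 (ENSG00000143384, chromosome 1 from 150574551 to 150579738, minus strand) encodes a short-lived guard that NOXA targets. It had 6652, 6727 and 6378 normalised counts in shControl and 5523, 5346 and 5265 in GALNT7 KD. Every GALNT7 KD library was below every shControl library, with a log2 fold change of -0.29 (SE 0.04, limma adjusted p = 0.010). The call rested in part on the settings: limma's adjusted p was 0.053 without shControl replicate 1 and 0.071 without the trend in eBayes, the highest of the 16 alternatives. In DU145 cells MCL1 had 14633, 14497 and 14805 normalised counts in the OE control and 15224, 15264 and 15769 in GALNT7 OE, which do not overlap. The log2 fold change of 0.07 did not pass (limma adjusted p = 0.083) and was -0.025 when the libraries were rescaled to their 75th percentile.

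BCL2L1 (ENSG00000171552, chromosome 20 from 31664452 to 31723989, minus strand), the source of BCL-XL, was 1.27-fold lower in GALNT7 OE. Its normalised counts were 6938, 7247 and 6944 in the OE control and 5652, 5463 and 5540 in GALNT7 OE. The groups were well apart, with a log2 fold change of -0.34 (SE 0.04, limma adjusted p = 0.00046), and the call held in all 16 alternatives. In CWR22Rv1 cells the gene stood at 901, 972 and 963 in shControl and 982, 945 and 954 in GALNT7 KD. These libraries overlapped, and the 95% interval of the log2 fold change ran from -0.13 to 0.18. A change of the size seen in DU145 cells thus lies outside the interval in CWR22Rv1 cells, although the 2 comparisons are of different lines and different manipulations.

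BCL2 (ENSG00000171791, chromosome 18 from 63123346 to 63320128, minus strand), the founder of the family, had 398, 415 and 426 normalised counts in shControl and 366, 401 and 371 in GALNT7 KD. The groups overlapped at 1 library, and the log2 fold change of -0.12 did not pass (95% interval -0.32 to 0.08). In DU145 cells its 6 values lay between 9.07 and 11.1 normalised counts and overlapped, with an interval from -0.58 to 0.82 that leaves a change of that size undetectable.

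By limma neither pore-forming gene was called in either comparison, where 9.06% of all genes were called in knockdown and 43.5% in overexpression. At an unadjusted p under 0.05 there was 1 of 2 in knockdown, BAK1, against 4675 of all 17906 genes. In overexpression there was 0 of 2, against 9677 of all 18705 genes, and edgeR called 0 in both comparisons. BAK1 (ENSG00000030110, chromosome 6 from 33572547 to 33580293, minus strand) had 773, 763 and 802 normalised counts in shControl and 906, 894 and 986 in GALNT7 KD. All GALNT7 KD libraries were above all shControl libraries, but the log2 fold change of 0.25 (SE 0.07) had a limma adjusted p of 0.077. DESeq2 on the recovered reads gave an adjusted p of 0.030, the lowest of 16 alternatives that reached up to 0.20. In DU145 cells the 6 BAK1 libraries lay between 727 and 819 and overlapped, with a log2 fold change of 0.04 in GALNT7 OE that turned to -0.058 after rescaling to the 75th percentile and to -0.034 after quantile normalisation.

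BAX (ENSG00000087088, chromosome 19 from 48954815 to 48961798, plus strand) had 872, 965 and 974 normalised counts in shControl and 972, 1012 and 1115 in GALNT7 KD, a log2 fold change of 0.14 (95% interval -0.06 to 0.34). In DU145 cells it had 559, 509 and 571 in the OE control and 570, 596 and 598 in GALNT7 OE, a log2 fold change of 0.11 (95% interval -0.08 to 0.29). The groups overlapped in both cell lines.

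Of the BH3-only genes, 2 of 4 were called in overexpression by limma, both lower, beside 43.5% of all genes, and 1 of 4 by edgeR and by DESeq2. In knockdown, where limma called 9.06% of all genes, 0 of 4 were called by limma, edgeR or DESeq2. BID alone was at an unadjusted p under 0.05. PMAIP1 (ENSG00000141682, chromosome 18 from 59899948 to 59904306, plus strand), the source of NOXA, was 1.51-fold lower in GALNT7 OE. Its normalised counts were 888, 946 and 884 in the OE control and 541, 635 and 623 in GALNT7 OE. No library of 1 group reached the other, and the log2 fold change was -0.60 (SE 0.08, limma adjusted p = 0.0015), called in all 16 alternatives. In CWR22Rv1 cells PMAIP1 had 191, 202 and 162 in shControl and 159, 187 and 160 in GALNT7 KD, which overlap (log2 fold change -0.14, 95% interval -0.46 to 0.19).

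BBC3 (ENSG00000105327, chromosome 19 from 47220822 to 47232766, minus strand), the source of PUMA, was lower in GALNT7 OE by a narrow margin. Its normalised counts were 129, 117 and 155 in the OE control and 102, 98.0 and 90.2 in GALNT7 OE. The groups did not overlap, but replicate 3 of the OE control was well above the other two, and the log2 fold change of -0.45 (SE 0.15) had a limma adjusted p of 0.046. The call was lost in 11 of 16 alternatives, over which the adjusted p ran from 0.024 to 0.21. The adjusted p was 0.051 with edgeR and 0.083 with DESeq2, both on the recovered reads. It lay between 0.067 and 0.14 in limma with 1 library left out, for each library except OE control replicate 2, without which it was 0.045. In CWR22Rv1 cells BBC3 had 417, 441 and 437 in shControl and 479, 419 and 560 in GALNT7 KD, which overlap (log2 fold change 0.16, 95% interval -0.12 to 0.44).

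BCL2L11 (ENSG00000153094, chromosome 2 from 111119378 to 111168447, plus strand), the source of BIM, varied more within groups than between them. It had 429, 491 and 863 normalised counts in shControl and 846, 709 and 598 in GALNT7 KD. Replicate 3 of shControl was the highest of the 6 and lay above all GALNT7 KD libraries, while the other shControl libraries lay below all of them. The log2 fold change of 0.33 had a 95% interval from -0.31 to 0.97 (limma adjusted p = 0.50), and with 1 library left out it ran from 0.13, without shControl replicate 1, to 0.63, without shControl replicate 3, not called in any case. In DU145 cells the gene had 615, 855 and 913 in the OE control and 705, 883 and 704 in GALNT7 OE. The groups overlapped, with a log2 fold change of -0.04 and an interval from -0.44 to 0.36. BCL2L11 overlaps the antisense gene MIR4435-2HG, which had a mean normalised count of 706 in the DU145 table and 4.10 in the CWR22Rv1 table. The library kit keeps the strand, and how it was used in counting is not given in the sources used here.

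BID (ENSG00000015475, chromosome 22 from 17734138 to 17774770, minus strand) was above its controls in every library of both manipulated lines and was called in neither. In CWR22Rv1 cells it had 54.1, 63.7 and 59.5 normalised counts in shControl and 88.0, 86.4 and 90.5 in GALNT7 KD. The gap between the groups was wider than the spread within them, with a log2 fold change of 0.57 (SE 0.15, limma adjusted p = 0.058). Without the trend in eBayes the adjusted p was 0.031, and over the 16 alternatives it reached up to 0.17. In DU145 cells the values were 1177, 1000 and 1042 in the OE control and 1308, 1260 and 1195 in GALNT7 OE, a log2 fold change of 0.23 (SE 0.08, limma adjusted p = 0.056). The adjusted p was 0.027 without OE control replicate 1, the highest of the controls, and 0.0496 with a filter at a mean of 20, and over the 16 alternatives it reached up to 0.25.

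Ratios between partners within a library do not depend on the scaling of that library and are given as a description. The BAK1 to MCL1 ratio of normalised counts was 0.116, 0.113 and 0.126 in shControl and 0.164, 0.167 and 0.187 in GALNT7 KD, with all GALNT7 KD libraries above. In DU145 cells that ratio lay between 0.0461 and 0.0536 in all 6 libraries and overlapped. The PMAIP1 to MCL1 ratio was 0.0607, 0.0653 and 0.0597 in the OE control and 0.0355, 0.0416 and 0.0395 in GALNT7 OE, with all GALNT7 OE libraries below, while in CWR22Rv1 cells it lay between 0.0254 and 0.0349 and overlapped. The BAX to BCL2 ratio was 2.27 ± 0.0689 (SD, n = 3) in shControl and 2.73 ± 0.251 (SD, n = 3) in GALNT7 KD, and the BCL2L11 to BCL2 ratio was 1.43 ± 0.52 (SD, n = 3) and 1.90 ± 0.365 (SD, n = 3).

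The receptor genes of TRAIL, with FAS and TNFRSF1A, gave 3 limma calls among 7 tested in knockdown (42.9%, against 9.06% of all genes), all higher. In overexpression they gave 5 among 7 (71.4%, against 43.5%), 2 higher and 3 lower. All these calls were of TRAIL receptor genes. TNFRSF10A (DR4) and TNFRSF10B (DR5) carry the death signal, TNFRSF10C and TNFRSF10D are decoys that bind TRAIL without passing it on, and TNFRSF11B (osteoprotegerin) is a soluble decoy. TNFRSF10B had 2377, 2136 and 2468 normalised counts in shControl and 3286, 3159 and 3528 in GALNT7 KD, and 5045, 5385 and 5548 in the OE control against 3754, 3536 and 3714 in GALNT7 OE. It was thus higher in knockdown (log2 fold change 0.52, SE 0.07, limma adjusted p = 0.010) and lower in overexpression (-0.54, SE 0.05, limma adjusted p = 0.00025), with no overlap in either cell line. The other death receptor TNFRSF10A had 480, 567 and 536 in the OE control and 822, 743 and 756 in GALNT7 OE, a log2 fold change of 0.55 (SE 0.09, limma adjusted p = 0.0025). In CWR22Rv1 cells it lay between 312 and 434 in shControl and between 223 and 528 in GALNT7 KD, so that the GALNT7 KD libraries spanned the controls (log2 fold change -0.03, SE 0.31), and the sign turned in 4 alternatives.

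The decoy TNFRSF10D was higher in both comparisons. It had 408, 408 and 385 normalised counts in shControl and 719, 678 and 686 in GALNT7 KD (log2 fold change 0.79, SE 0.08, limma adjusted p = 0.0028). In DU145 cells it had 1196, 1191 and 1196 in the OE control and 1969, 1932 and 1840 in GALNT7 OE (log2 fold change 0.68, SE 0.05, limma adjusted p = 0.00010). The controls were close to each other in both lines and all manipulated libraries lay above them. TNFRSF10C was lower in GALNT7 OE, with 279, 273 and 223 against 177, 181 and 213 (log2 fold change -0.43, SE 0.13, limma adjusted p = 0.036). This call was lost in 7 of 16 alternatives, whose adjusted p ran from 0.016 to 0.11, with limma adjusted p-values of 0.11 without OE control replicate 1, 0.11 without OE control replicate 2, 0.092 without GALNT7 OE replicate 1 and 0.099 without GALNT7 OE replicate 2. In CWR22Rv1 cells TNFRSF10C lay between 1.93 and 21.3 normalised counts in all 6 libraries.

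TNFRSF11B had 57.9, 69.8 and 77.8 normalised counts in shControl and 133, 124 and 112 in GALNT7 KD, a log2 fold change of 0.84 (SE 0.17, limma adjusted p = 0.028). The groups did not overlap, but with any library except GALNT7 KD replicate 3 left out the limma adjusted p lay between 0.053 and 0.10. Over the 16 alternatives it ran from 0.0071 to 0.10. In DU145 cells it had 49.6, 44.0 and 50.4 in the OE control and 6.01, 6.47 and 4.20 in GALNT7 OE, a log2 fold change of -2.92 (SE 0.27, limma adjusted p = 0.00021) on few reads. Of the other death receptor genes, FAS and TNFRSF1A were called in neither comparison. The ligand gene FASLG had no reads in any library, and TNF was not analysed here.

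**Figure D3:**
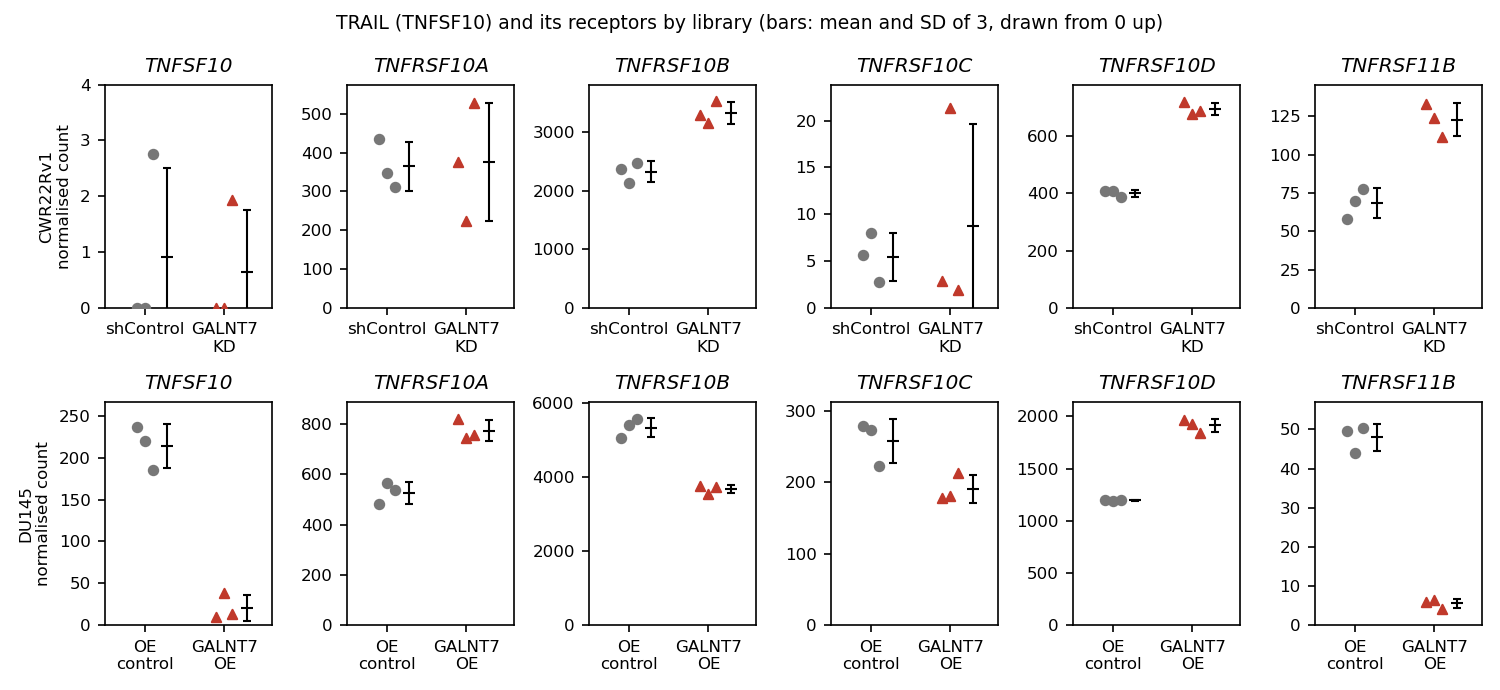
Normalised counts of TNFSF10 (TRAIL) and of its receptor genes in each library of CWR22Rv1 cells (top) and DU145 cells (bottom), each panel on its own axis from 0; bars give the mean and SD of 3. TNFSF10 fell in GALNT7 OE, TNFRSF10D stood above its controls in both cell lines, and TNFRSF10B was above its controls in GALNT7 KD and below them in GALNT7 OE.

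The rest of the family gave 1 limma call among 10 genes tested in knockdown (10%, against 9.06% of all genes) and 7 among 13 in overexpression (53.8%, against 43.5%). In knockdown 4 of the 10 had an unadjusted p under 0.05, against 4675 of all 17906 genes. DESeq2 called 2, BNIP3 and HRK, against 2666 of all genes. The BH3-only gene HRK, added after its values were seen, had 23.3, 25.6 and 77.8 normalised counts in shControl and 6.77, 14.9 and 3.85 in GALNT7 KD, which do not overlap (log2 fold change -2.14, SE 0.61, limma adjusted p = 0.078). HRK lies on chromosome 12. BNIP3, a mitochondrial protein known for hypoxia and mitophagy, had 855, 773 and 728 normalised counts in shControl and 1309, 1346 and 1196 in GALNT7 KD (log2 fold change 0.71, limma adjusted p = 0.0065). It was also higher in GALNT7 OE (0.30, limma adjusted p = 0.0097). BCL2A1, an anti-apoptotic gene known as a target of NF-kB, had 391, 385 and 407 in the OE control and 31.1, 43.4 and 50.3 in GALNT7 OE. This fall of 3.24 on the log2 scale (SE 0.19, limma adjusted p = 2.9e-05) put all GALNT7 OE libraries far below the controls. BCL2A1 had no reads in CWR22Rv1 cells. The BH3-only gene BMF had 736, 989 and 836 in the OE control and 308, 273 and 298 in GALNT7 OE (log2 fold change -1.53, limma adjusted p = 0.00011). In CWR22Rv1 cells its log2 fold change was -0.0082 (SE 0.08).

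BIK, another BH3-only gene, was lower in GALNT7 OE with a log2 fold change of -0.75 (limma adjusted p = 0.017), on 37.9 to 85.9 normalised counts. Its adjusted p was 0.062 without OE control replicate 2 and 0.053 without OE control replicate 3, and ran from 0.011 to 0.084 over the 16 alternatives. BCL2L12 was higher in GALNT7 OE, with 301, 281 and 346 in the OE control and 624, 624 and 583 in GALNT7 OE (log2 fold change 0.98, limma adjusted p = 0.00032). In GALNT7 KD its log2 fold change was 0.18 and did not pass (limma adjusted p = 0.13). BCL2L13 and BNIP3L were the other genes of this list called in overexpression, both higher.

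The caspases and their adaptors gave 0 calls among 11 genes in knockdown by limma and by edgeR, where limma called 9.06% of all genes. At an unadjusted p under 0.05 there were 2, against 4675 of all 17906 genes, and DESeq2 called 1. In overexpression 5 of 11 were called by limma (45.5%, near the 43.5% of all genes), 4 higher and 1 lower. The list is the same in both comparisons, and its median log2 fold change was -0.012 in knockdown and 0.21 in overexpression. CASP9, the initiator caspase of the mitochondrial route, had 365, 362 and 482 in the OE control and 695, 701 and 764 in GALNT7 OE (log2 fold change 0.85, limma adjusted p = 0.0018). The adaptor TRADD was lower (log2 fold change -0.62, limma adjusted p = 0.0040), and CFLAR, which holds back caspase-8, was also called higher.

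Of the genes for the apoptosome and proteins released from mitochondria, 3 of 6 were called in overexpression, all higher, where 43.5% of all genes were called and 22.9% called higher. In knockdown, where 9.06% of all genes were called, 0 of 6 were called by limma, edgeR or DESeq2, with DIABLO alone at an unadjusted p under 0.05. CYCS, cytochrome c, had 1916, 1916 and 1883 normalised counts in the OE control and 4099, 4511 and 4593 in GALNT7 OE (log2 fold change 1.21, SE 0.06, limma adjusted p = 1.1e-05). AIFM1 (log2 fold change 0.75, limma adjusted p = 0.00017) and DIABLO (0.32, limma adjusted p = 0.0036) were higher too. In knockdown DIABLO stood at -0.23 and was not called. Like HRK it lies on chromosome 12, whose 922 genes tested had a median log2 fold change of -0.28 in knockdown. The marker KRT18 (-0.35, called) lies there too. So do TNFRSF1A (-0.20), APAF1 (0.06) and DDIT3 (-0.0083), none of them called in knockdown. A link between these values and the position of the genes was not tested. None of the 10 genes described here lies on that chromosome.

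Among the inhibitors of apoptosis 2 of 5 genes tested were called in overexpression (40%, near the 43.5% of all genes), in opposite directions. BIRC5 (survivin), which also acts in cell division, had 1187, 1211 and 1150 normalised counts in the OE control and 4696, 4324 and 4294 in GALNT7 OE (log2 fold change 1.91, SE 0.06, limma adjusted p = 2.9e-06). BIRC3, an inhibitor known as an NF-kB target, had 2973, 2846 and 2809 against 1020, 1370 and 876 (log2 fold change -1.43, SE 0.15, limma adjusted p = 0.00041). In knockdown 0 of 5 were called by limma or edgeR, where limma called 9.06% of all genes. BIRC5 stood at -0.25 (limma adjusted p = 0.054) and was the 1 gene at an unadjusted p under 0.05 and the 1 called by DESeq2.

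**Figure D4:**
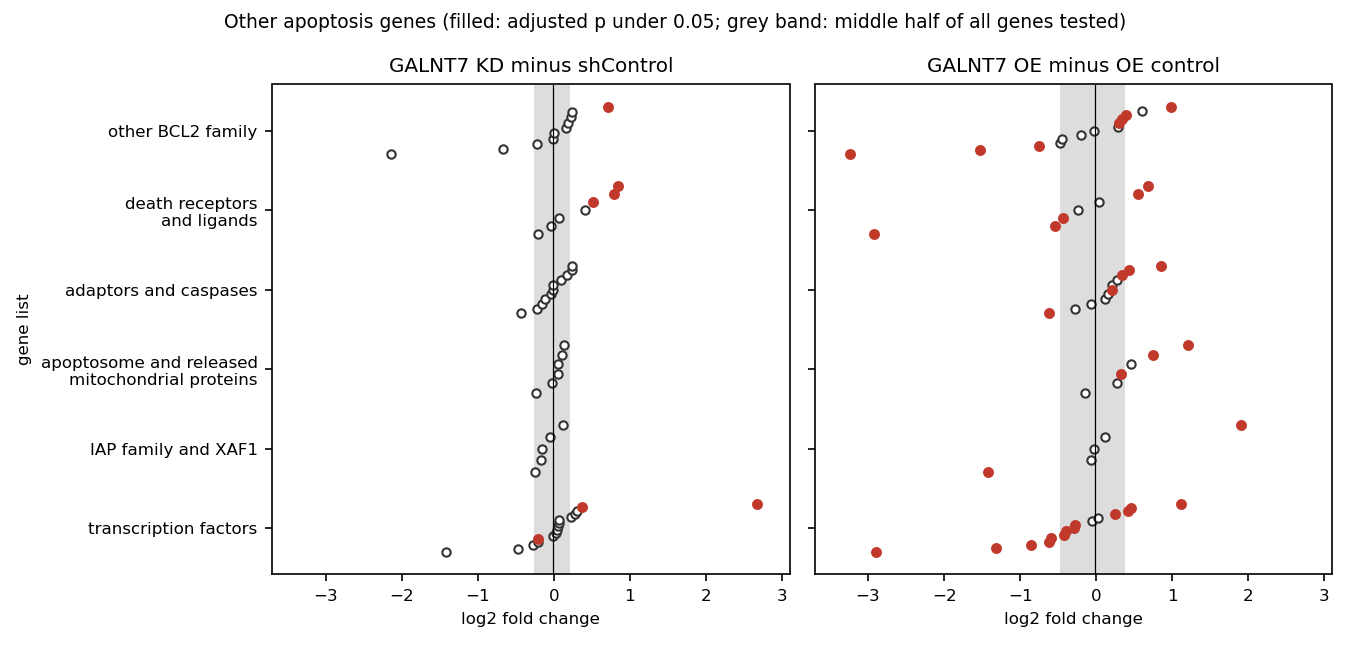
Log2 fold changes of the other apoptosis genes tested, by list, for GALNT7 KD minus shControl (left) and GALNT7 OE minus OE control (right); filled points have an adjusted p under 0.05 and the grey band runs from the lower to the upper quartile of all genes tested. In knockdown 7 of 55 genes are filled and in overexpression 35 of 57, with BCL2A1, TNFRSF11B and FOXO1 farthest to the left.

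Over all these lists together, 7 of 55 genes were called by limma in knockdown (12.7%, against 9.06% of all genes), 6 higher and 1 lower, and 35 of 57 in overexpression (61.4%, against 43.5%), 18 higher and 17 lower. Their median log2 fold changes were 0.04 and 0.03. Of the transcription factors reported to act on the 10 genes, 3 of 16 were called in knockdown (18.8%, against 9.06% of all genes), 2 higher and 1 lower. In overexpression 13 of 15 were called (86.7%, against 43.5% of all genes), 4 higher and 9 lower. FOXO1 had 227, 259 and 234 normalised counts in shControl and 1663, 1840 and 1193 in GALNT7 KD, a log2 fold change of 2.68 (SE 0.17, limma adjusted p = 0.00065). In DU145 cells it had 374, 2138 and 2544 in the OE control and 163, 183 and 165 in GALNT7 OE, a log2 fold change of -2.89 (SE 0.68, limma adjusted p = 0.013). Replicate 1 of the OE control was far below the other two and still above all GALNT7 OE libraries, and without it the log2 fold change was -3.77. Without OE control replicate 2 it was -2.51 (limma adjusted p = 0.043) and without OE control replicate 3 it was -2.39 (limma adjusted p = 0.037).

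FOXO3 was higher in GALNT7 KD, with 1563, 1695 and 1519 normalised counts against 2106, 2067 and 2021 (log2 fold change 0.38, limma adjusted p = 0.016). That call was lost without shControl replicate 1 (limma adjusted p = 0.069), shControl replicate 3 (0.061) or GALNT7 KD replicate 1 (0.071), the last being the highest of the 16 alternatives. In GALNT7 OE it was lower (log2 fold change -0.40, limma adjusted p = 0.0027). Beside these FOXO values, 0 of the 2 reported targets tested in knockdown, BCL2L11 and BBC3, was called by limma, edgeR or DESeq2. In that comparison limma called 9.06% of all genes. Neither target had an unadjusted p under 0.05 in limma. Their intervals included both signs, and TNFSF10 had too few reads to be tested. In overexpression limma called 2 of the 3 lower, TNFSF10 and BBC3, where 43.5% of all genes were called, while edgeR and DESeq2 called 1, TNFSF10. BCL2L11 was called by none of these tools.

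The stress factor ATF4, reported to act on PMAIP1 and BBC3, was lower in GALNT7 KD, with 7097, 7151 and 7133 normalised counts against 6188, 6161 and 6203 (log2 fold change -0.20, limma adjusted p = 0.016). The groups were far apart beside their spread, but the limma adjusted p was 0.068 without shControl replicate 1, 0.056 without shControl replicate 2, 0.065 without shControl replicate 3 and 0.071 without GALNT7 KD replicate 1, and reached up to 0.12 over the 16 alternatives. In GALNT7 OE cells JUN, a subunit of AP-1, had a log2 fold change of -1.32 (limma adjusted p = 1.0e-05). IRF1, an interferon response factor, had one of -0.86 (limma adjusted p = 0.00026), with 695, 613 and 631 normalised counts in the OE control and 341, 363 and 362 in GALNT7 OE. E2F1, a cell cycle factor, had one of 1.11 (limma adjusted p = 2.5e-05). FOXO1, JUN and IRF1 act through motifs like those printed above, and a link between these factors and TNFSF10 or BBC3 was not tested.

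The genes whose levels ran most like those of the reported FOXO targets were ranked by Pearson's r over the 12 libraries, after each cell line was centred on its mean. This is a description over 12 points that share their groups, among 11816 genes for TNFSF10. LYN, a SRC family kinase (r = 0.945), CXCL16, a chemokine (r = 0.941), and PLSCR1, an interferon-induced scramblase (r = 0.937), came closest to TNFSF10. Since TNFSF10 had almost no reads in the 6 CWR22Rv1 libraries, its ranking rests mostly on the 6 DU145 libraries and their 2 groups. The 3 reads in shControl replicate 3 and the 2 reads in GALNT7 KD replicate 3 also enter it. These few reads can favour genes that happen to be high in the same libraries. CCDC71 (r = 0.945), MED29, a Mediator subunit (r = 0.919), and TSC22D4 (r = 0.915) came closest to BBC3. BCL2L11 was most like the unnamed gene ENSG00000276910 (r = 0.888), the WNT pathway inhibitor NKD1 (r = 0.829) and AC034236.1 (r = 0.812).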

How the data were processed

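Polyadenylated RNA of 12 libraries was sequenced with a stranded kit. The authors deposited 1 table of normalised counts per cell line, a signal in which the reads of a gene are scaled by 1 size factor per library. The submitters' processing notes name R 3.5.3, FastQC, Salmon, DESeq2 and hg38, with no role or order. In each library the values were whole multiples of the smallest one (100% within 0.01 reads), which gave back the reads. Names, exon lengths and positions on GRCh38 came from GENCODE release 29, where 94.4% of the identifiers were found.

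Tests used limma 3.58.1 in R 4.3.3 on log2(normalised count + 1), with a mean of at least 5, for each cell line. Alternatives were pseudocounts of 0.5 and 10, no filter, a filter at 20, 75th percentile and quantile scaling, the replicate number as a block, no trend, each library left out, and edgeR 4.0.16 and DESeq2 1.42.0 on recovered reads. The script was tested on simulated data. The 10 genes, the wider lists and the motifs were chosen with earlier results of these data known. From each wider list, up to 4 called genes per comparison with the largest change and a mean of at least 50 were named, and the TRAIL receptors in any case. For genes named in 1 comparison, the value in the other is sometimes given beside it. Some genes of the lists are counted but their values are not reported here. Genes called but named without values were added after their values were seen.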

Additional observations from a re-analysis of the deposited data

Results flagged for a closer look

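For 7 of the genes in these lists every GALNT7 KD library and every GALNT7 OE library lay above all of its own controls, so that the change had the same sign although GALNT7 was lowered in one comparison and raised in the other. In each case the sign relative to GALNT7 was therefore opposite in the 2 cell lines, and the difference between the cell lines was not tested. Of the 10 genes and the wider lists, 9 and 55 were tested in knockdown and 10 and 57 in overexpression. Over all genes the groups did not overlap for 32.5% in knockdown and 55.3% in overexpression. How many of all genes were apart in both with the same sign was not counted, so the 7 cannot be set against a background. For BID the log2 fold change was 0.57 in knockdown against 0.23 in overexpression, neither called. BNIP3 had 0.71 and 0.30, both called. BCL2L12 had 0.18 in knockdown, not called, and 0.98 in overexpression. The decoy receptor TNFRSF10D had 0.79 and 0.68, both called. BNIP3L had 0.23 in knockdown, not called, and 0.34 in overexpression, called, and ATF3 had 0.31, not called, and 0.42, called. FADD had 0.23 and 0.11, neither called. BNIP3L, ATF3 and FADD were added after their values were seen. Cell line and manipulation cannot be told apart in this design.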

How the results depend on the processing

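Each comparison had 16 alternatives. Of 844 values of single genes under them, 779 kept their sign and their side of the threshold, 47 lost the call, 4 gained it and 14 changed sign. All 14 are of genes not called. BCL2L1 in knockdown was -0.00020 after quantile normalisation and ran from -0.011 to 0.044 with 1 library left out. TNFRSF10A in knockdown was 0.039 with edgeR and 0.040 with DESeq2, and ran from -0.32 to 0.30 with 1 library left out, and TNFRSF10C from -0.28 to 0.63 over the 5 libraries whose removal left it above the filter. Without GALNT7 KD replicate 2, its highest library, TNFRSF10C was not tested. MCL1 in overexpression was -0.025 and BAK1 -0.058 at the 75th percentile, and BAK1 -0.034 after quantile normalisation. BCL2L11 in overexpression ran from -0.22 to 0.067 with 1 library left out. The cause was not tested.

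With DESeq2, 2 of the 9 genes tested (MCL1 and BAK1) and 11 of the wider lists were called in knockdown. Over all 17906 genes DESeq2 called 2666, against 1623 by limma. With 1 library left out, limma called 0 to 1 of the 9 genes and 4 to 9 of the wider lists in knockdown. Rescaling to the 75th percentile moved the share of higher calls in overexpression from 52.8% to 41.6% of all calls and shifted the median of all genes by -0.097. Correlations of same-numbered deviations ran from -0.011 to 0.075 in knockdown, and of differently numbered ones from -0.064 to 0.074. In overexpression they ran from 0.016 to 0.043 for the same number and from -0.045 to 0.0042 for different numbers. All were small, and 3 libraries per group are too few to settle whether replicate numbers pair the libraries. With the replicate number as a block, 1 of the 9 genes tested was called in knockdown and 3 of 10 in overexpression, and 5 and 34 of the wider lists. Over all genes calls went from 1623 to 1002 and from 8132 to 7405. Depth limited TNFSF10 in CWR22Rv1 cells and BCL2 in DU145 cells, which had few reads.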
